A study of Arabidopsis thaliana with 12 samples.

Results

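The transcripts described here are those whose level was lower under supplemental far-red light at both levels of abscisic acid (ABA) and whose level differed little with ABA. They were found in the aerial parts of Arabidopsis thaliana seedlings, 10 days old, whose last 24 hours were spent under 1 of 4 conditions with 3 arrays each. Per the labels the 3 arrays are biological replicates. The far-red groups got white light with added far-red, either with 1 mM ABA (called far-red with ABA) or with 0 mM (far-red). The white-light groups got white light only, again with 1 mM ABA (white light with ABA) or 0 mM (white light). Before that all plants spent 9 days at 22 °C under constant white light. The labels name no ecotype, mutation or transgene for any group. As printed in the labels, white light was 80 and added far-red 6 mmol/m2 s; whether the prefixes of these units and of the ABA dose are as intended could not be checked.

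Each probe set was placed by 2 numbers made from the group means of log2 expression. The averaged far-red difference is the mean of far-red and far-red with ABA minus the mean of white light and white light with ABA. The averaged ABA difference is the mean of the ABA groups minus the mean of the groups without it. A member had an averaged far-red difference of -0.45 or lower, an averaged ABA difference within 0.25 of 0, and a group mean of at least 5 log2 units in its highest group. Of 22746 non-control probe sets 73 met these thresholds. AT1G23390 and the autophagy gene ATG8E were left out by name, which left 71 members. The annotation named a single gene for 37 of them, 37 different genes in all, and the other 34 are unnamed here, so their identities and roles were not analysed. Any autophagy gene among those 34 could not be left out. Because the averaged differences chose the members, those differences and the simple differences they are made of are given below as a description and without a test.

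Leaves absorb red light and pass far-red, so shade is rich in far-red, and an added far-red lamp imitates it. Such light turns phytochrome B, the main red-light receptor of green plants, to its inactive form. Growth-promoting PIF transcription factors then accumulate, stems and petioles elongate, and resources are withdrawn from leaf functions and defence. ABA is the hormone of water deficit and seed maturation and acts through its own receptors and kinases, so a gene can follow the light and not the hormone, the other way round, or both.

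The tissue and the arrays were checked first. Of the leaf mesophyll markers, 6 were measured and all were called present on all 12 arrays, with group means between 9.32 and 13.36 log2 units. Among them RCA, the activase of Rubisco, had group means of 13.32 to 13.36. The root-hair expansins EXPA7 and EXPA18 were called present on 0 of 12 arrays, while PYK10, a beta-glucosidase best known from roots and also made in seedling shoots, was called present on all 12 at group means of 11.38 to 11.65. The median of an array was 5.45 to 5.62 log2 units, and 60.63% to 67.21% of its probe sets were called present. The number of arrays limits the precision, and the standard error of the interaction had a median of 0.144 log2 units over all probe sets and 0.17 over the members. RNA was taken from whole aerial parts, so fewer cells of a type and less RNA per cell cannot be told apart.

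Across the members the averaged far-red difference ran from -1.44 to -0.46 with a median of -0.58, against a median of 0.00 (-0.0004) over all probe sets. Without ABA the far-red minus white light difference had a median of -0.70 and ran from -1.63 to -0.25. With ABA it had a median of -0.46 and ran from -1.25 to -0.18. The difference reached at least 1 log2 unit, or 2-fold, in 11 members without ABA (AT5G42250, which no array called present, among them) and in 4 with ABA. The 3 far-red arrays lay below the 3 white-light arrays in 69 of 71 members, an arrangement found in 10.7% of all probe sets. The 3 far-red arrays with ABA lay below the 3 white-light arrays with ABA in 61 members, against 9.83% of all probe sets. Both held in 60 members and in 2.83% of all probe sets. The rule used these contrasts, so nothing is read from those counts. The levels spanned most of the range of the array, with far-red means from 3.87 to 10.92 and white-light means from 5.05 to 11.61 log2 units. Most calls were present, and 62 members (87.32%) were called present on all 12 arrays, against 54.8% of all probe sets. The threshold on the highest group mean favours such probe sets, so nothing is read from that share either.

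The member with the lowest averaged far-red difference was a probe set without a gene name here. It measured 5.24, 5.15 and 4.60 log2 units in far-red, against 6.60, 6.43 and 6.86 in white light, and with ABA 5.57, 5.49 and 5.09 in far-red, against 6.55, 6.59 and 6.77 in white light. Without ABA its far-red arrays were all more than 1 log2 unit below its lowest white-light array. The difference was -1.63 without ABA, or 3.10-fold lower in far-red, and -1.25 with ABA, or 2.38-fold lower in far-red with ABA.

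Among the named genes AT1G56300 had the lowest averaged difference. It encodes a J-domain protein, a class of co-chaperones that deliver clients to heat-shock proteins. On the log2 scale AT1G56300 was at 7.02, 6.59 and 6.72 on the far-red arrays, against 7.90, 7.70 and 7.94 on the white-light arrays, and in the presence of ABA at 6.83, 6.55 and 6.58 under far-red, against 7.93, 7.65 and 7.64 in white light. The groups do not overlap at either ABA level, and the differences were -1.07 without ABA and -1.09 with it. AT5G43440, an oxygenase that uses 2-oxoglutarate and iron, had nearly the same differences. The far-red arrays gave AT5G43440 5.24, 4.70 and 4.83 log2 units, against 6.21, 5.58 and 6.17 on those of white light. Far-red with ABA gave 5.19, 5.06 and 4.87, against 6.16, 6.18 and 6.00 in white light with ABA. White light replicate 2 was well below the other arrays of its group, and still above every far-red array. Its differences were -1.07 and -1.08, without and with ABA. AT2G05540 encodes a glycine-rich protein, a type often found in cell walls. AT2G05540 read 6.98, 7.13 and 6.67 log2 units in far-red, against 7.77, 7.74 and 8.45 in white light, and 7.05, 6.87 and 6.43 in far-red with ABA, against 7.72, 8.11 and 7.58 in white light with ABA. White light replicate 3 was the highest array, and no far-red array reached the lowest white-light value at the same ABA level. The differences of AT2G05540 were -1.06 without ABA and -1.02 with ABA.

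In the next genes the difference was larger without ABA. AT2G39400 belongs to the alpha/beta hydrolases, a fold shared by lipases and esterases. In far-red AT2G39400 stood at 3.74, 3.86 and 4.02 log2 units, against 5.21, 5.02 and 5.41 in white light, and in far-red with ABA at 4.297, 4.12 and 4.27, against 4.68, 5.11 and 4.78 in white light with ABA. All 6 far-red arrays lay below the 6 white-light arrays, and the far-red arrays with ABA lay above those without it. It was called present on 1 of 3 far-red arrays and on 3 of 3 white-light arrays. The difference was -1.34 without ABA and -0.62 with ABA. AT1G73750, also of this fold, was measured with a wider spread in white light. AT1G73750 had log2 values of 5.54, 5.62 and 5.64 in far-red, against 6.56, 6.16 and 6.88 in white light. When ABA was given, they were 5.61, 5.75 and 5.99 in far-red, against 6.38, 6.65 and 6.53 in white light. Its groups do not overlap, at differences of -0.93 and -0.74. AT5G56100, the other glycine-rich member, is related to oleosins, the coat proteins of oil bodies. AT5G56100 measured 6.59, 6.63 and 6.39 log2 units in far-red, against 7.64, 7.45 and 7.86 in white light, and with ABA 7.08, 7.01 and 6.64 in far-red, against 7.61, 7.73 and 7.47 in white light. Far-red with ABA was intermediate, with 2 of its arrays above 7 and all of them above every far-red array.

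AT2G41250 encodes a hydrolase of the haloacid dehalogenase fold and had closely spaced replicates. On the log2 scale AT2G41250 was at 7.18, 7.20 and 7.25 on the far-red arrays, against 8.21, 8.23 and 8.27 on the white-light arrays, and in the presence of ABA at 7.60, 7.68 and 7.62 under far-red, against 8.10, 8.24 and 8.13 in white light. The 4 groups are separate except that white light with ABA overlaps white light. The SD within a group was at most 0.07 log2 units, and the differences were -1.02 without ABA and -0.52 with ABA. AT3G47160 encodes a RING-type protein, a class that includes many ubiquitin ligases. The far-red arrays gave AT3G47160 6.73, 6.55 and 6.74 log2 units, against 7.73, 7.41 and 7.77 on those of white light. Far-red with ABA gave 7.13, 7.04 and 7.04, against 7.82, 7.63 and 7.71 in white light with ABA. Again far-red with ABA lay between far-red and the white-light groups, with no overlap. AT1G22890, for which no role is given here, also had far-red with ABA between far-red and the white-light groups by group mean. AT1G22890 read 4.78, 4.56 and 5.11 log2 units in far-red, against 5.75, 5.70 and 6.12 in white light, and 5.38, 4.88 and 5.26 in far-red with ABA, against 5.71, 5.82 and 5.50 in white light with ABA. The arrays of far-red with ABA overlap those of far-red. Its differences were -1.04 without ABA and -0.50 with ABA, with a gap of 0.12 log2 units between the nearest arrays of the ABA groups.

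AT1G70820 is a member of the phosphoglucomutase family, enzymes that interconvert glucose phosphates on the way to starch and sucrose. In far-red AT1G70820 stood at 8.05, 7.88 and 7.80 log2 units, against 8.73, 8.49 and 9.08 in white light, and in far-red with ABA at 7.96, 7.98 and 7.69, against 8.73, 8.60 and 8.52 in white light with ABA. Its differences were close to each other, -0.85 without ABA and -0.74 with it. AT5G42250, of the zinc-binding alcohol dehydrogenase family, had a value above 5 log2 units on every array. AT5G42250 had log2 values of 5.42, 5.14 and 5.30 in far-red, against 6.40, 5.97 and 6.50 in white light. When ABA was given, they were 5.39, 5.68 and 5.46 in far-red, against 6.23, 6.14 and 6.20 in white light. It was called present on 0 of 12 arrays by the detection algorithm, so its log2 values are given and no fold is read from them.

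**Figure D1:**
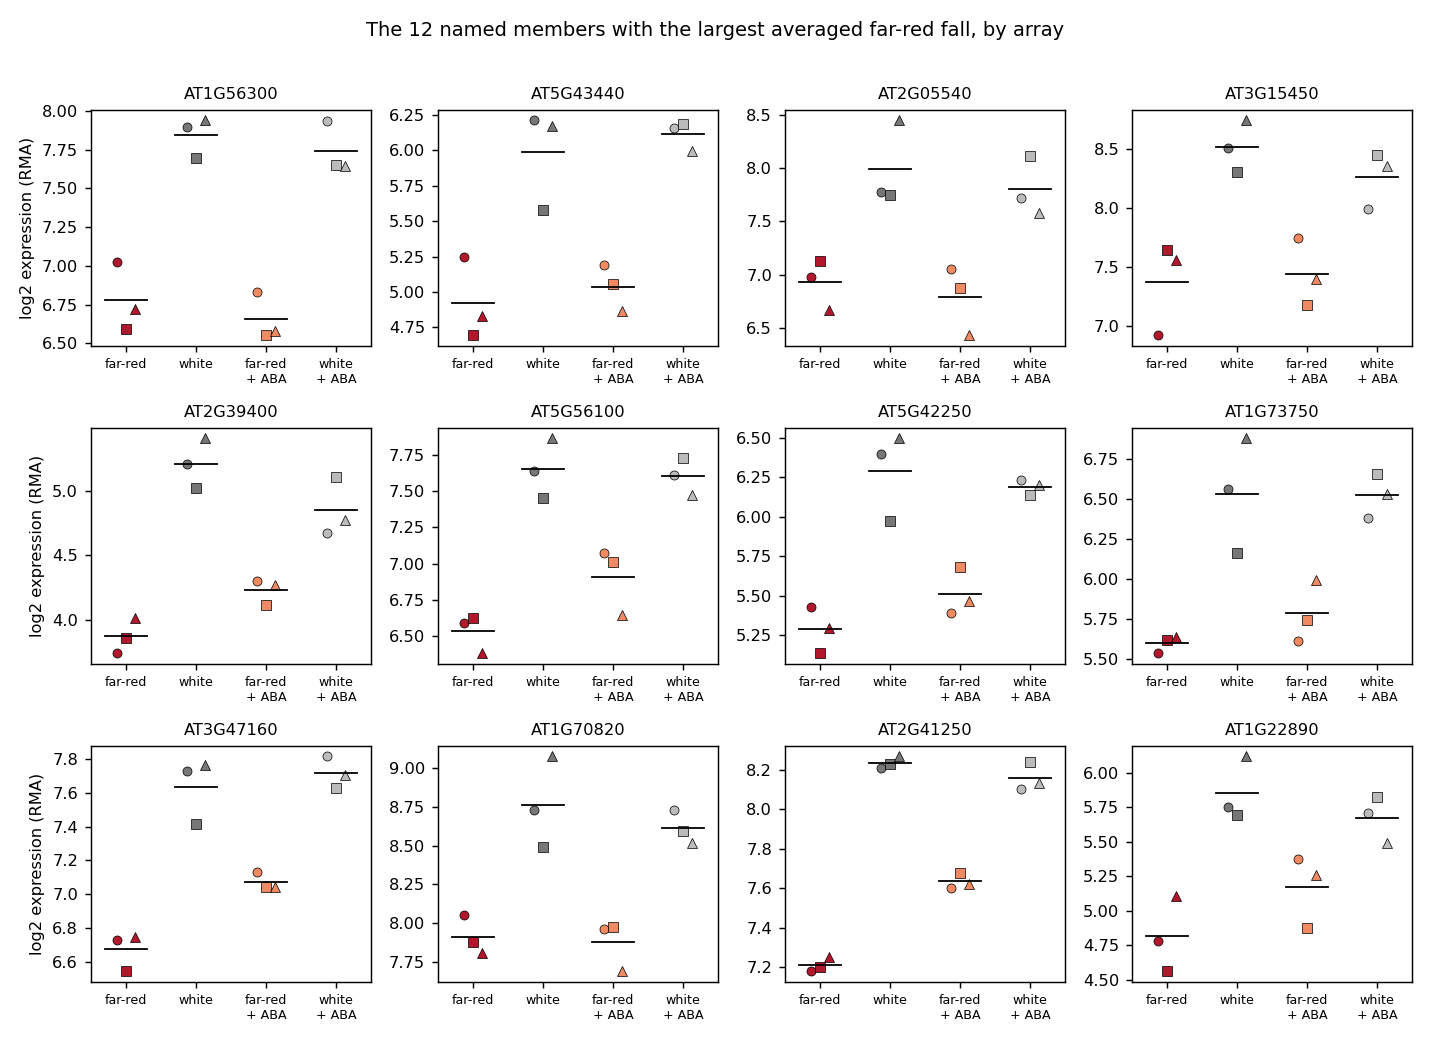
Log2 expression (vertical axis, different range in each panel) of the 12 named members with the lowest averaged far-red difference, with the groups from left to right far-red, white light, far-red with ABA, then white light with ABA. Circles, squares and triangles are replicates 1, 2 and 3 and lines are group means (n = 3), and in each panel every far-red point lies below every white-light point at the same ABA level.

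A family of proteins with YGL and LRDR motifs, first described as aluminium-induced, contributed 3 named members. Transcripts of AT3G15450 in particular are widely used as a mark of darkness and sugar starvation. The grouping was made from knowledge of the genes after the members were known. AT3G15450 measured 6.92, 7.64 and 7.56 log2 units in far-red, against 8.51, 8.30 and 8.74 in white light, and with ABA 7.74, 7.17 and 7.40 in far-red, against 7.99, 8.44 and 8.36 in white light. AT3G15450 had far-red replicate 1 lowest and differences of -1.14 without and -0.82 with ABA. For AT4G27450 white light had the widest spread. On the log2 scale AT4G27450 was at 4.82, 4.72 and 4.85 on the far-red arrays, against 5.14, 5.57 and 5.77 on the white-light arrays, and in the presence of ABA at 5.04, 4.74 and 4.97 under far-red, against 5.54, 5.55 and 5.31 in white light. Its white light replicate 1 was closest to the far-red arrays, and the groups stay apart at both ABA levels. AILP1 (AT5G19140) is the member of the family with a gene symbol. The far-red arrays gave AILP1 9.48, 9.39 and 9.84 log2 units, against 10.34, 9.94 and 10.46 on those of white light. Far-red with ABA gave 9.80, 9.80 and 10.10, against 10.41, 10.31 and 10.34 in white light with ABA. Its nearest far-red and white-light arrays without ABA were 0.09 log2 units apart. The averaged far-red differences of the 3 genes were -0.98, -0.62 and -0.56, and their averaged ABA differences were -0.10, 0.04 and 0.22.

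COR27 (AT5G42900) and AT4G33980, known as COR28, were both members. They encode small related proteins that are induced by cold, repress clock genes and act in light signalling downstream of the photoreceptors. COR27 read 5.40, 5.24 and 5.59 log2 units in far-red, against 6.14, 5.96 and 5.97 in white light, and 5.39, 5.26 and 5.65 in far-red with ABA, against 6.24, 5.88 and 6.17 in white light with ABA. The groups do not overlap, and the difference was -0.62 without and -0.66 with ABA. In far-red AT4G33980 stood at 4.62, 4.32 and 4.32 log2 units, against 5.00, 4.97 and 5.18 in white light, and in far-red with ABA at 4.63, 4.08 and 4.31, against 5.43, 5.07 and 5.05 in white light with ABA. For AT4G33980 the groups are also separate, and its difference was -0.63 without and -0.84 with ABA. Their averaged ABA differences were 0.05 and 0.03. Of the clock genes listed for comparison 2 could be matched to a named probe set. GI, a clock component that peaks in the evening, rose by 0.59 log2 units on average under far-red light (SE 0.09, n = 3 a group, limma adjusted p = 0.00125). CCL, a clock-controlled transcript, fell by 0.53 on the log2 scale (SE 0.08, limma adjusted p = 0.00174) and was no member because its averaged ABA difference was 0.36. Calls of lower and of higher levels for the averaged far-red difference were made for 3.98% and 5.3% of all probe sets. These were 905 lower and 1205 higher calls (57.11% higher), and centring each array on its median gave 1645 lower and 664 higher (28.76% higher).

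**Figure D2:**
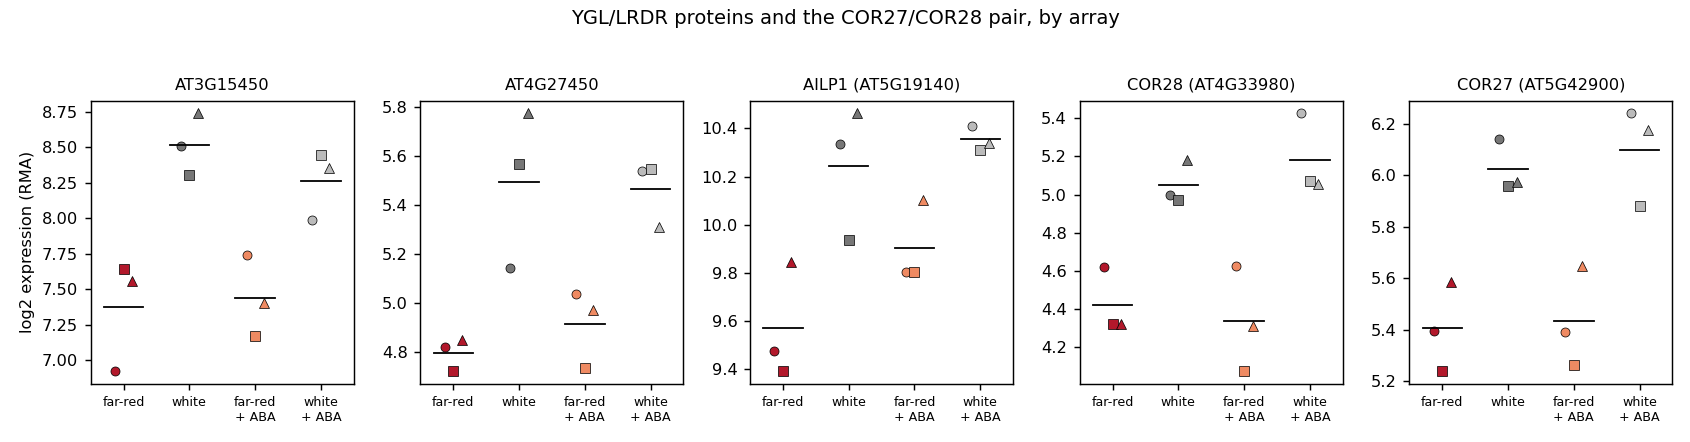
Log2 expression of the 3 named members with YGL and LRDR motifs and of COR28 and COR27, with the groups from left to right far-red, white light, far-red with ABA, then white light with ABA. Circles, squares and triangles are replicates 1, 2 and 3, lines are group means (n = 3), and vertical ranges differ between panels; all far-red points lie below the white-light points at the same ABA level.

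Among metabolic and chloroplast genes, AT1G14120 (DAO2) is related to the dioxygenases that oxidise auxin, the hormone of shade-induced elongation. AT1G14120 had log2 values of 6.36, 6.08 and 6.12 in far-red, against 6.70, 7.12 and 6.39 in white light. When ABA was given, they were 6.39, 6.28 and 6.23 in far-red, against 6.69, 6.97 and 6.55 in white light. White light replicate 3 came within 0.03 log2 units of the highest far-red array, and the averaged difference was -0.49. TRXF2 (AT5G16400) is a thioredoxin that activates chloroplast enzymes in the light. TRXF2 measured 9.15, 8.84 and 9.23 log2 units in far-red, against 9.72, 9.53 and 9.99 in white light, and with ABA 9.26, 9.18 and 9.11 in far-red, against 9.76, 9.60 and 9.49 in white light. Its arrays do not overlap, and the averaged difference was -0.55. AT4G30690, of the initiation factor IF-3 family of organelle translation, had an averaged difference of -0.49 from a white-light mean of 8.004 ± 0.20 log2 units (SD, n = 3). AT2G32090, of the glyoxalase I family that removes methylglyoxal, had -0.48. AT2G29290, a dehydrogenase resembling tropinone reductases, had -0.51.

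Further members include a phosphatase, a lectin and a gene of a wound-responsive family. AT1G25230 is a purple acid phosphatase, an enzyme class that frees phosphate from organic esters. On the log2 scale AT1G25230 was at 7.64, 7.57 and 7.76 on the far-red arrays, against 8.72, 8.21 and 8.86 on the white-light arrays, and in the presence of ABA at 7.56, 7.71 and 7.67 under far-red, against 8.11, 8.11 and 8.11 in white light. It has the averaged ABA difference nearest to the threshold, -0.25, and its white light with ABA arrays were all below every white-light array. AT1G52100 belongs to the jacalin lectins, a class that binds sugars. The far-red arrays gave AT1G52100 9.03, 8.94 and 8.74 log2 units, against 9.81, 9.71 and 9.64 on those of white light. Far-red with ABA gave 9.17, 9.24 and 8.77, against 9.62, 9.72 and 9.44 in white light with ABA. The averaged far-red difference was -0.67 and the ABA difference 0.02. AT4G05070, of a wound-responsive family, had an averaged difference of -0.53, and AT4G32340, a protein with tetratricopeptide-like repeats, had -0.52. AT2G20670, of a family with a domain of unknown function, had -0.58.

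The other named members, which are given without a role, were AT5G02160, AT3G49790, AT3G10020, AT5G53030, AT2G03310, AT1G27290, AT5G57345, AT4G33666 and AT3G52070. AT5G02160 had the lowest averaged difference of them. AT5G02160 read 9.29, 9.28 and 9.50 log2 units in far-red, against 10.23, 9.89 and 10.41 in white light, and 9.61, 9.55 and 9.50 in far-red with ABA, against 10.07, 10.02 and 9.85 in white light with ABA. The far-red arrays lay below the white-light arrays in each pair of groups. AT5G53030 was called absent on all 3 far-red arrays and on all 3 far-red arrays with ABA, at means of 4.39 and 4.42 log2 units. Its far-red mean was 1.59-fold lower than its white-light mean, and it was called present on 2 of 3 white-light arrays. That fold rests on far-red values called absent and is not a lower bound. The remaining genes of this group had averaged far-red differences between -0.46 (AT3G52070) and -0.62 (AT3G49790). Of the 3 members with the highest mean over the 4 groups, AILP1 is described above and the other 2 are unnamed probe sets. The first had means of 10.92 ± 0.18 in far-red and 11.61 ± 0.11 in white light, and of 10.89 ± 0.05 in far-red with ABA and 11.35 ± 0.17 in white light with ABA (SD, n = 3). In far-red it stood at 10.85, 10.78 and 11.13 log2 units, against 11.61, 11.50 and 11.71 in white light, and in far-red with ABA at 10.84, 10.94 and 10.88, against 11.42, 11.47 and 11.15 in white light with ABA. Its groups stay apart at both ABA levels. For the other unnamed probe set the averaged difference was -0.53. It had log2 values of 9.86, 10.53 and 9.66 in far-red, against 10.84, 10.82 and 10.27 in white light. When ABA was given, they were 10.08, 10.02 and 10.10 in far-red, against 10.08, 10.67 and 10.73 in white light. Its far-red and white-light arrays overlap at both ABA levels, with far-red replicate 2 high in its group.

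The interaction, the far-red difference with ABA minus the far-red difference without ABA, asks whether one factor acts differently in the background of the other. In this balanced design it is estimated independently of the averaged differences that chose the members if all groups have the same spread. On that ground the interaction was tested. Over the members the array mean had an SD of 0.11 log2 units in white light and 0.03 in far-red (n = 3). With ABA the SD was 0.07 in white light and 0.05 in far-red. How far unequal spread and the choice of members shaped the counts below was not tested. The threshold on the highest group mean is also not strictly independent of the interaction. A positive value in a member means a difference nearer to 0 with ABA, where both differences are below 0. None of the 71 members passed (0 of 71, limma adjusted p of at least 0.526), and of all 22746 probe sets 0 passed (0.0%). At an unadjusted p under 0.05 limma gave 24 of 71 members, 22 of them above 0. Over all probe sets that share was 6.44%, and 2.26% for values above 0. The members were measured on the same 12 arrays, so these counts are not 71 independent results. Without white light replicate 3 the count of 24 members became 12, and without white light with ABA replicate 3 it became 14.

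The interaction was above 0 in 61 members and below 0 in 10, with a median of 0.24 log2 units, against a median of -0.01 and 46.32% above 0 over all probe sets. The number above 0 stayed between 56 and 66 over all alternatives run, the lowest without white light replicate 3. Seen from the ABA side, the white light with ABA minus white light difference was below 0 in 52 members (median -0.10), and the far-red with ABA minus far-red difference was above 0 in 56 (median 0.16). The highest group mean was that of white light in 52 members and of white light with ABA in 19. The lowest was that of far-red in 56 and of far-red with ABA in 15. Since no member passed the test, these counts describe the set and single out no gene.

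Differences nearer to 0 with ABA were also measured in neighbouring sets chosen by the same cuts. The 51 far-red-raised, ABA-neutral probe sets had far-red medians of 0.38 with ABA and 0.64 without ABA and a median interaction of -0.26, with 6 of 51 above 0. The 60 probe sets lowered by far-red and raised by ABA had a median interaction of 0.30, and the 32 lowered by both had 0.25. The share with an unadjusted limma p under 0.05 for the interaction was 31.37%, 38.33% and 25.0% in these sets, in that order. Among the members it was 33.8%. No difference of the interaction between these sets and the members was tested, and the direction was not shown to be particular to the ABA-neutral genes.

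**Figure D3:**
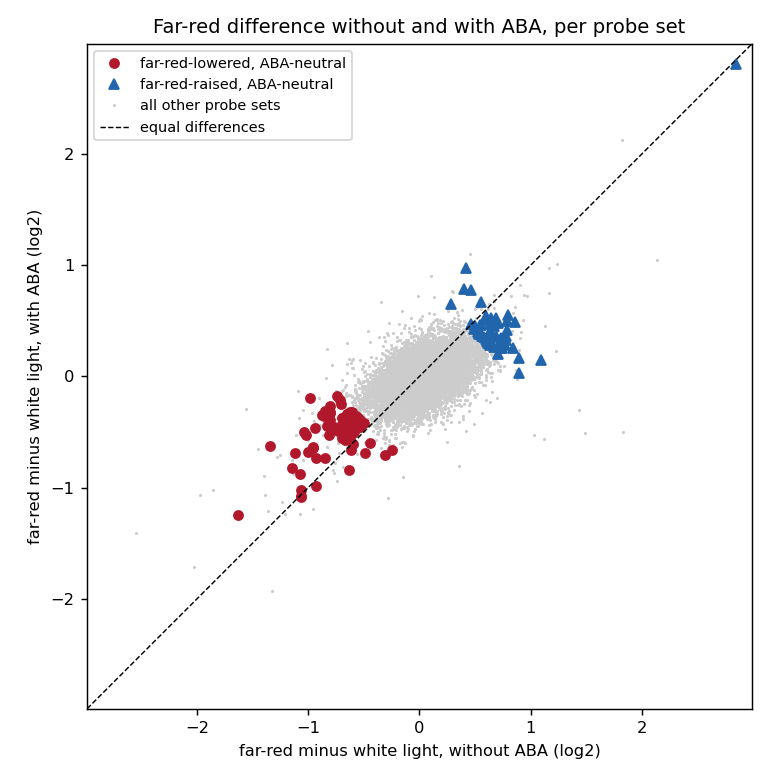
Far-red minus white light (log2) without ABA on the horizontal axis and with ABA on the vertical axis, 1 point per probe set, from group means of 3 arrays. Of the 71 far-red-lowered, ABA-neutral members (circles) 61 lie above the dashed line of equal differences, which is the side of a difference nearer to 0 with ABA.

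The largest positive interaction was that of PDF1.4 (AT1G19610), of the plant defensins, small antimicrobial proteins. PDF1.4 measured 4.42, 4.41 and 4.003 log2 units in far-red, against 4.91, 5.85 and 5.02 in white light, and with ABA 4.74, 4.95 and 4.60 in far-red, against 4.66, 5.12 and 5.09 in white light. White light replicate 2 stood above all other arrays, and the groups with ABA overlap. The interaction was 0.79 (SE 0.29, limma adjusted p = 0.755, range 0.466 to 0.951 over its alternatives). Without white light replicate 2 it was 0.50, below the 0.81 of AT2G39400 and the 0.64 of AT2G20670 in the same fit. AT2G39400, whose values are given above, had 0.72 (SE 0.17, limma adjusted p = 0.572, range 0.306 to 0.929). An unnamed probe set followed with 0.56 (SE 0.19, limma adjusted p = 0.736). On the log2 scale it was at 6.22, 6.17 and 6.60 on the far-red arrays, against 6.98, 6.89 and 7.34 on the white-light arrays, and in the presence of ABA at 6.83, 6.83 and 6.90 under far-red, against 7.09, 7.18 and 6.82 in white light. Its groups are apart without ABA and overlap with it. AT2G20670 had 0.54 (SE 0.18, limma adjusted p = 0.736, range 0.375 to 0.951). The far-red arrays gave AT2G20670 6.54, 6.61 and 6.59 log2 units, against 7.42, 7.23 and 7.64 on those of white light. Far-red with ABA gave 6.95, 6.85 and 6.73, against 7.10, 7.44 and 6.93 in white light with ABA. With ABA its far-red and white-light arrays overlap, and without ABA they are well apart. AT2G41250, with an interaction of 0.50 (SE 0.11), had the lowest p of all members (limma adjusted p = 0.526).

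The lowest interaction was that of ARV2 (AT4G01510), related to ARV1, a protein of sterol homeostasis. ARV2 read 4.93, 4.78 and 4.86 log2 units in far-red, against 5.17, 5.07 and 5.08 in white light, and 4.45, 4.67 and 4.81 in far-red with ABA, against 5.48, 5.40 and 5.03 in white light with ABA. Its difference was -0.25 without ABA and -0.66 with ABA, an interaction of -0.41 (SE 0.16, limma adjusted p = 0.758, range 0.519 to 0.929 over its alternatives). An unnamed probe set had -0.40 (SE 0.13, limma adjusted p = 0.736). In far-red it stood at 7.43, 7.18 and 7.54 log2 units, against 7.69, 7.69 and 7.70 in white light, and in far-red with ABA at 6.96, 6.94 and 7.02, against 7.60, 7.79 and 7.65 in white light with ABA. Both pairs of groups are separate, the one with ABA by more. AT4G33980 had -0.21 (SE 0.20, limma adjusted p = 0.889, range 0.79 to 0.976). That value was -0.08 without replicate 2 and -0.36 without replicate 1 of far-red with ABA, -0.12 without far-red replicate 1, -0.09 without replicate 1 of white light with ABA, and -0.13 with each array centred on its median. In 11 members the differences at the 2 ABA levels were apart by less than 0.1 log2 units, among them AT1G56300 (-0.02), AT5G43440 (-0.01), AT2G05540 (0.04) and COR27 (-0.05). Of the named members 31 lay above 0 and 6 below.

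**Figure D4:**
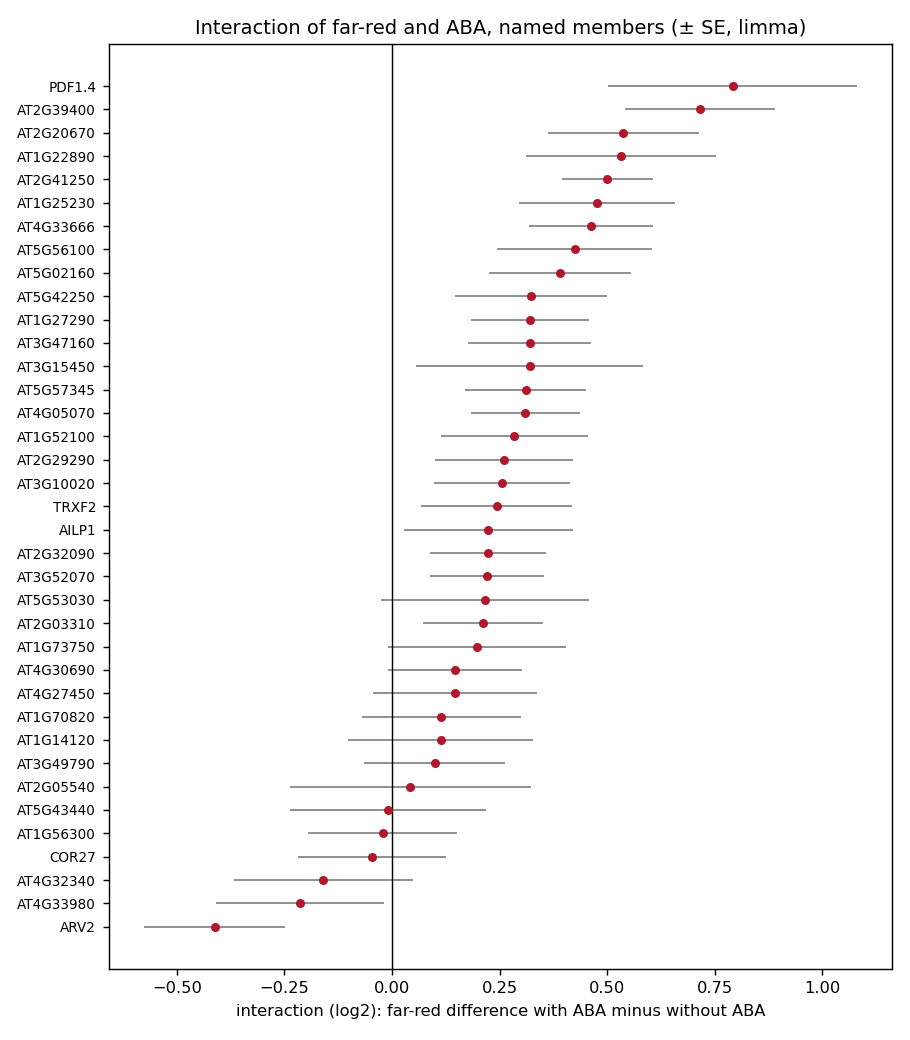
Interaction of far-red and ABA (log2, horizontal axis) for the 37 named members, with points for the estimate and bars for its standard error from limma (4 groups of 3 arrays). 31 genes lie above 0, from AT2G05540 at 0.04 to PDF1.4 at 0.79, and 6 below, down to ARV2 at -0.41.

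The arrays of a group differed over the members more in white light than elsewhere. The mean over the 71 members was 6.74, 6.70 and 6.76 log2 units on far-red replicates 1, 2 and 3, against 7.49, 7.38 and 7.60 on white light replicates 1, 2 and 3. It was 6.93, 6.87 and 6.83 in far-red with ABA, against 7.40, 7.45 and 7.32 in white light with ABA. Every far-red array lay below every white-light array in this mean. The rule chose the members by these values, so nothing is read from that order. White light replicate 2 was above its group mean in 15 of 71 members and white light replicate 3 in 57, while 43.85% and 50.08% of all probe sets were above their group mean on these arrays. Without replicate 2 of white light the median interaction of the members was 0.30, and without replicate 3 it was 0.22.

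**Figure D5:**
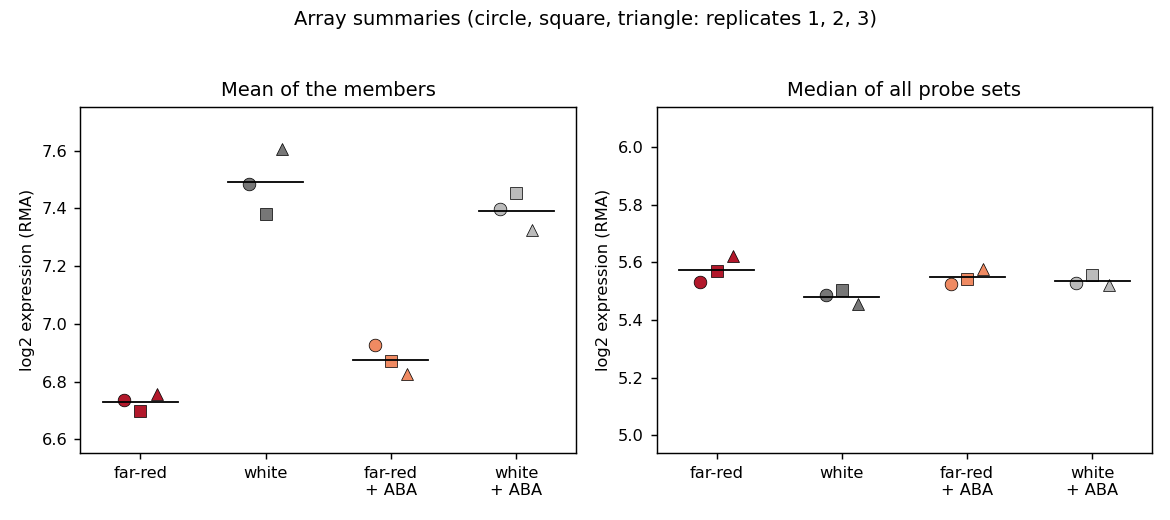
Mean log2 expression of the 71 members (left) and median of all probe sets (right) on each array, each far-red group left of its white-light group, with circles, squares and triangles for replicates 1, 2 and 3 and lines for group means. Member means lie between 6.70 and 6.93 on the 6 far-red arrays and between 7.32 and 7.60 on the 6 white-light arrays. That separation follows from the rule that chose the members. Array medians, over probe sets not chosen by it, lie between 5.45 and 5.62.

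At the edges of the rule, the members nearest to the far-red threshold were ARV2 at -0.456 and an unnamed probe set at -0.460. The nearest probe sets outside were AT3G16175 at -0.448 and an unnamed one at -0.444. On the ABA side AT1G25230 at -0.249 and an unnamed probe set at -0.243 were just inside, and an unnamed one at 0.252 and AT2G25200 at 0.253 just outside. On the level AT5G53030 at 5.06 and AT4G33980 at 5.18 were just inside, and 2 unnamed probe sets at 4.93 and 4.81 just outside. When the rule was applied again with 1 array left out, between 59 and 67 of the 71 members met it. With each array centred on its median 69 of them met it, among 103 probe sets, and with quantile normalization 70 among 86.

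Lists of genes from pathways tied to shade were set beside the members, by the averaged far-red difference tested with limma over all probe sets. By that test 3.98% of all probe sets were called lower and 5.3% higher, so single calls in short lists say little about a pathway. Only list genes with a named probe set could be matched, and these are called measured here. None of them was a member, and a list gene among the 34 unnamed members could not be counted. The defence list did not hold PDF1.4, a member of the plant defensin family with an averaged far-red difference of -0.59. Of 7 measured light-harvesting and photosystem genes LHCB4.2, an antenna protein of photosystem II, fell by 0.29 on the log2 scale (SE 0.06, limma adjusted p = 0.0139), and the other 6 did not pass (median of the list -0.12). Of 4 measured cytokinin genes RR16, a response regulator, rose by 0.31 (SE 0.08, limma adjusted p = 0.0243, range 0.0134 to 0.0623 over its alternatives). The call was lost without far-red with ABA replicate 3 (0.29), far-red replicate 3 (0.25), white light replicate 3 (0.31) or, with ABA, white light replicate 2 (0.26). The list had a median of 0.05. Of 7 measured defence genes LCR67, a defensin-like gene called present on 0 of 12 arrays, passed with a difference of -0.38 (SE 0.10, limma adjusted p = 0.0299, range 0.0118 to 0.0816) at group means of 2.98 to 3.55, and the list had a median of -0.10. That call was lost when far-red replicate 2 was left out (-0.33), or replicate 2 (-0.38) or 3 (-0.36) of far-red with ABA, or, under white light plus ABA, replicate 1 (-0.36) or 2 (-0.38). PDF1.2b, a defensin of the jasmonate pathway, had -0.61 (SE 0.27, limma adjusted p = 0.161) and passed only without far-red replicate 2 (-0.90). Its far-red minus white light difference was -1.10 without ABA and -0.13 with ABA, at an SD of 0.99 in far-red. PDF1.2, on the same list, had an averaged difference of -0.29 (SE 0.32, limma adjusted p = 0.603).

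In the other lists no gene passed the test. They were 7 genes of chlorophyll synthesis (median -0.05), 8 touch and wound response genes (median 0.00, -0.0007), 4 pectin methylesterases (median -0.06), 3 glucosinolate genes (median -0.03) and 3 genes of photoprotection and the UV-B response (median -0.01). The chlorophyll methyltransferase CHLM, at -0.18 (SE 0.06, limma adjusted p = 0.0724), passed without white light replicate 2 (-0.21). Over all probe sets the median was -0.0004. Most genes of these lists were not analysed here.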

How the data were processed

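Total RNA was hybridised to 1-colour Affymetrix arrays, 12 in all. The log2 expression values were deposited by the authors and, per the submitters' processing notes, were made with RMA, robust multi-array averaging, in affy. RMA removes most uniform shifts between arrays and compresses low values. Detection calls (present, marginal, absent; the unit is a letter, not a score) were deposited too, from MAS5. Which versions and genome build applied is not given in the sources used here; no coordinates are printed. The series' value table held the same values to within 5e-09 and was not used further.

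From these values 22746 probe sets were tested after leaving out 64 control probe sets. Names came from the platform table (13513 probe sets with 1 gene, 503 with several, 8730 not listed) and RefSeq symbols (TAIR10.1). Group means on all 12 arrays gave the rule's differences. Two-sided tests used limma 3.58.1 (R 4.3.3) with 1 mean for each group and moderated variances (8 residual and 7.21 prior degrees of freedom). P-values were adjusted by Benjamini-Hochberg over the 22746 probe sets, at a threshold of 0.05. For a fold against a group called absent on every array, each absent value was to be raised to that array's lowest present value where it was below it. Those lowest present values were 2.46 to 2.80 log2 units. The far-red values of AT5G53030 were all above them, so its fold is the ratio of the group means. The fit was tested on simulated data with planted interactions larger than that of any member (at most 0.79 log2 units). That test cannot tell whether interactions of the members' size would be found.

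Members and lists were chosen with earlier results of these data known. Array values are given for the 12 named members with the lowest averaged far-red difference, the extremes of the interaction and of the level, and family members, and other members are given by role. AT1G25230, AT1G52100 and AT5G02160 were added to those given by array after their values were seen. Families were grouped from knowledge of the genes, because the RefSeq table used here holds no descriptions. The 9 lists came from textbook knowledge and were matched by symbol or synonym. The planned search for promoter motifs was not run, and no sequence was used here. Alternatives were median centring, quantile normalization, a filter on present calls (3 or more arrays), a trended robust variance, array weights, the replicate number as a block, and leaving out each of the 12 arrays. Groups share replicate numbers, which were not used as a block in the reported fit. The p-values measure the spread between arrays of a group.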

Additional observations from a re-analysis of the deposited data

How the results depend on the processing

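Leaving out 1 array at a time gave 509 to 1124 probe sets called lower and 623 to 1447 called higher for the averaged far-red difference (905 and 1205 in the fit of all arrays). Lower calls were fewer by over 1.5 times without far-red with ABA replicate 3 (594), far-red replicate 2 (568), white light with ABA replicate 1 (549) or 2 (513), or white light replicate 3 (509). Higher calls were fewer by that much without far-red with ABA replicate 2 (789) or 3 (697), far-red replicate 2 (655), white light with ABA replicate 1 (623) or 2 (714), or white light replicate 3 (624). Centring each array on its median gave 1645 lower and 664 higher, 28.76% higher against 57.11%, and a median interaction of the members of 0.33 (0.07 over all probe sets). Without centring that median was 0.24, and 0.21 to 0.30 with 1 array left out. The cause of these changes was not tested. For the interaction 2 probe sets passed with a trended robust variance and 0 to 2 with 1 array left out, none of them a member. The members at unadjusted p under 0.05, a count chosen after seeing the data, numbered 12 to 29 with 1 array left out. Lower calls in the chlorophyll list numbered 1 after centring, quantile normalization or a trended variance (0 to 1 with 1 array left out), and higher calls 1 with a trended variance. In the photosystem list lower calls numbered 3 after centring or with a trended variance and 2 under the filter on present calls, where fewer probe sets are tested. In the defence list they numbered 0 after quantile normalization or that filter (0 to 1 with 1 array left out), and higher calls in the cytokinin list 0 after quantile normalization (0 to 1). With the replicate block 1498 probe sets were called higher and 1029 lower, 27 members had an unadjusted interaction p under 0.05, and 0 members passed. Deviations from the group means correlated at -0.05 to 0.27 between same-numbered arrays, above 0.1 in 8 of 18 pairs, including all 3 of far-red with ABA against far-red (0.12 to 0.27). White light with ABA against white light gave 0.15, 0.22 and 0.096 for replicates 1, 2 and 3, and far-red against white light 0.035, 0.20 and 0.14. For 7 of the 12 arrays the mean correlation with same-numbered arrays of other groups exceeded every correlation with their other-numbered arrays. This is a hint of pairing from the data; the labels state none and not every pair exceeded 0.1, so the block was kept as an alternative. RMA can compress values near background, so falls of low members may be understated, which was not tested.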
